A study of Mus musculus with 44 samples.

Results

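The B lineage transcription factors Pax5, Ebf1, Tcf3, Spib, Pou2af1, Irf8, Ikzf1, Ikzf3 and Foxo1 were followed across 43 lymphomas and 1 spleen. The members were all probe sets annotated to these 9 symbols, an Affymetrix probe set being a group of spots read as 1 value. This gave 16 of 22690 probe sets and 8 of the 8721 genes kept for testing. Ikzf3 (Aiolos) was not analysed here. All 44 arrays came from mice of the genotype Eµ-myc, in which a Myc transgene under the immunoglobulin heavy chain enhancer drives B cell lymphoma. Total RNA was biotin-labelled and hybridised to an Affymetrix mouse array, and each array gives 1 log2 value per probe set, so that 1 unit is a doubling. The labels give 43 arrays the tissue type of a lymphoma tumour and 1 array that of spleen (D168), with no treatment, age or sex. They do not say whether each array came from a separate animal, whether the spleen was free of tumour, or which samples were tissue and which were cell pellets.

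Commitment to the B lineage is built by these factors in steps. The E protein Tcf3 and Foxo1 act with Ebf1 in early progenitors to open B cell genes, and Ebf1 then induces Pax5, which holds B cell identity by activating genes of the B cell receptor complex and silencing genes of other lineages. Ikzf1 (Ikaros) works from the lymphoid progenitor on, largely through the NuRD chromatin remodelling complex. Spib, Pou2af1 and Irf8 are best known for later steps: Spib is an ETS factor of receptor signalling, Pou2af1 (OBF-1) is the coactivator of the octamer factors, and Irf8 takes part in germinal centre B cells and also in dendritic cells and macrophages.

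The arrays fell into sets with different overall levels. The 36 lymphomas with names up to D117 had array medians of 6.22 to 6.46, and the 7 lymphomas above D117 had 6.86 to 6.96, beside 7.02 for the spleen. Levels are therefore given by set (the first and the second set), differences are taken within a set, and "centred" values are log2 values minus the mean of the lymphomas of the same set. The B cell marker gene Cd79a, a subunit of the B cell receptor, had a median of 11.40 in the first set and 11.44 in the second. Its lowest values, in the lymphomas D92 (6.42), D55 (8.83) and D121 (9.08), belonged to 3 lymphomas that also stood apart in the factors below. In bulk RNA, fewer cells of a type and less RNA per cell cannot be told apart.

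Promoters are shown for the factors that separated the lymphomas most (Ebf1, Pou2af1, Irf8) and for Foxo1, the measured factor whose promoter holds a full palindromic EBF site. Sequences are those of RefSeq (GRCm38.p6), from 250 bases before to 50 after the start, written 5′ to 3′ on the gene's strand, with matched motifs in capitals.
Ebf1, chr11:44617850-44618149, plus strand: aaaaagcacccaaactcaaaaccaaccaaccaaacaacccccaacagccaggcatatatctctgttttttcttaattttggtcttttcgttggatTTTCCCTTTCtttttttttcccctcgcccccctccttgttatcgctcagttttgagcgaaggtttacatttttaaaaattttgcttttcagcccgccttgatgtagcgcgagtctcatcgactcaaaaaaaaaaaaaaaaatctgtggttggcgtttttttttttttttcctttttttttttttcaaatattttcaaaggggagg
Pou2af1, chr9:51213440-51213739, plus strand: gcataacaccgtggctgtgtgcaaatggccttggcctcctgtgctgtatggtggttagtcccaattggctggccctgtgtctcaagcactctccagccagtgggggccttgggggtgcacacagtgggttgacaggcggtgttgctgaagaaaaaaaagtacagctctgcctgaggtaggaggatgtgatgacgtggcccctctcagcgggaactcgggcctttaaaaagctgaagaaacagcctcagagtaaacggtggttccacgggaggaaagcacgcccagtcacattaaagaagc
Irf8, chr8:120736108-120736407, plus strand: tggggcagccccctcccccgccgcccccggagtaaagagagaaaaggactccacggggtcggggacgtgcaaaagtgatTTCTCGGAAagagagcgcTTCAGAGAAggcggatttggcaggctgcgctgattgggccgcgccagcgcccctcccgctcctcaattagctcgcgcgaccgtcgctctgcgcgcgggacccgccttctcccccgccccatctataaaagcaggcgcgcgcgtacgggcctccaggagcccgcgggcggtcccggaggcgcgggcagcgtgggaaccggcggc
Foxo1, chr3:52268087-52268386, plus strand: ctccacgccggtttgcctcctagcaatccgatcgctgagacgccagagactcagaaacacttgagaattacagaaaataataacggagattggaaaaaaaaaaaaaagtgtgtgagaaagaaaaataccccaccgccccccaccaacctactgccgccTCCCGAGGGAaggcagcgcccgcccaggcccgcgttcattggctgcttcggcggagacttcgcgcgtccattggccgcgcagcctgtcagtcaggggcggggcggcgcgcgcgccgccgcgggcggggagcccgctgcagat
Both strands of the 11 promoters listed for the 8 measured factors were searched for 7 motifs, and no matches overlapped in the printed ones. The capitals in Ebf1, at position -155 from the start, match an interferon response element (GAAA, any 2 bases and GAAA) on the other strand, which 3.44% of all 32851 promoters hold. The capitals in Irf8 are 2 GAS elements (TTCNNNGAA), the kind of site bound by STAT proteins, at -171 and -153, and 8.3% of promoters hold at least 1. In Foxo1 they are the EBF site (TCCC, any 2 bases and GGGA) at -92, held by 0.904% of promoters. The other motifs were the E protein site CAGGTG (20.2% of promoters), the octamer ATGCAAAT (1.74%), the ETS site GAGGAAGT (3.2%) and the FOXO site GTAAACA (3.65%), none of which lies in the 4 printed windows. A second Irf8 start holds CAGGTG at -205 and a second Ikzf1 start holds a GAS element at position 18, while the windows of Pax5, Spib, Pou2af1 and Tcf3 hold none of the 7. These matches are descriptions of letters and not binding sites.

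The early factors were well expressed but differed in how much they varied. Ebf1 (Entrez Gene 13591) had a lowest, median and highest level of 3.30, 8.99 and 10.06 in the first set and of 6.04, 9.22 and 11.09 in the second, and the spleen had 6.99. Its SD over the 43 centred lymphomas was 1.48, rank 145 of 8721 genes, where the median gene had 0.33. Its 3 probe sets varied together, with correlations of at least 0.98 with the one reported. Tcf3 (21423), which encodes the E proteins E12 and E47, had 9.45, 11.05 and 11.75 in the first set and 10.47, 11.62 and 12.16 in the second, and the spleen, at 9.96, lay below all 7 lymphomas of its set. Its SD was 0.61. On another Tcf3 probe set the spleen, at 8.805, lay just above the lowest of the 7, at 8.798. Foxo1 (56458), a forkhead factor held in the cytoplasm by AKT signalling, had 7.08, 8.62 and 9.70 in the first set and 8.03, 8.86 and 10.49 in the second, against 7.88 in the spleen, again below all 7, with an SD of 0.61. Of its 4 probe sets, 3 followed each other, and the other had a median of 4.18 in the first set, did not follow them (r = -0.0077 with the one reported) and was not used further. On 1 of the 3 that followed each other, the spleen, at 7.10, lay above the lowest of the 7, at 6.86.

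Pax5 and Ikzf1 gave low signals, near or below the array median. The single Pax5 (18507) probe set had a lowest, median and highest level of 4.63, 6.15 and 6.88 in the first set and 5.63, 6.77 and 7.38 in the second, and the spleen had 5.58, below all 7. Its SD was 0.54. Ikzf1 (22778) had 5.45, 6.39 and 6.89 in the first set and 7.09, 7.29 and 7.78 in the second, with 7.24 in the spleen, inside the range of its set. It varied least of the 8 factors, with an SD of 0.32 and rank 4813 of 8721. Small differences in these 2 genes are measured less well than those of the brighter factors.

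The later factors were among the brighter genes. Pou2af1 (18985) had a lowest, median and highest level of 5.36, 11.76 and 12.23 in the first set and of 9.31, 12.27 and 12.62 in the second, with 12.56 in the spleen. Spib (272382) had 8.69, 11.05 and 12.23 in the first set and 10.62, 12.20 and 12.45 in the second, and 9.98 in the spleen, below all 7. Irf8 (15900) had 8.72, 9.96 and 12.59 in the first set and 9.52, 10.83 and 12.86 in the second, and 9.40 in the spleen, below all 7. Irf8 was the broadest of the 8 over the bulk of the lymphomas, with an SD of 0.98 that was 0.84 without D55, D92 and D121. Pou2af1 was the opposite case: its SD was 1.42, rank 177, and 0.33 without those 3, where that of Ebf1 was 0.78.

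**Figure D1:**
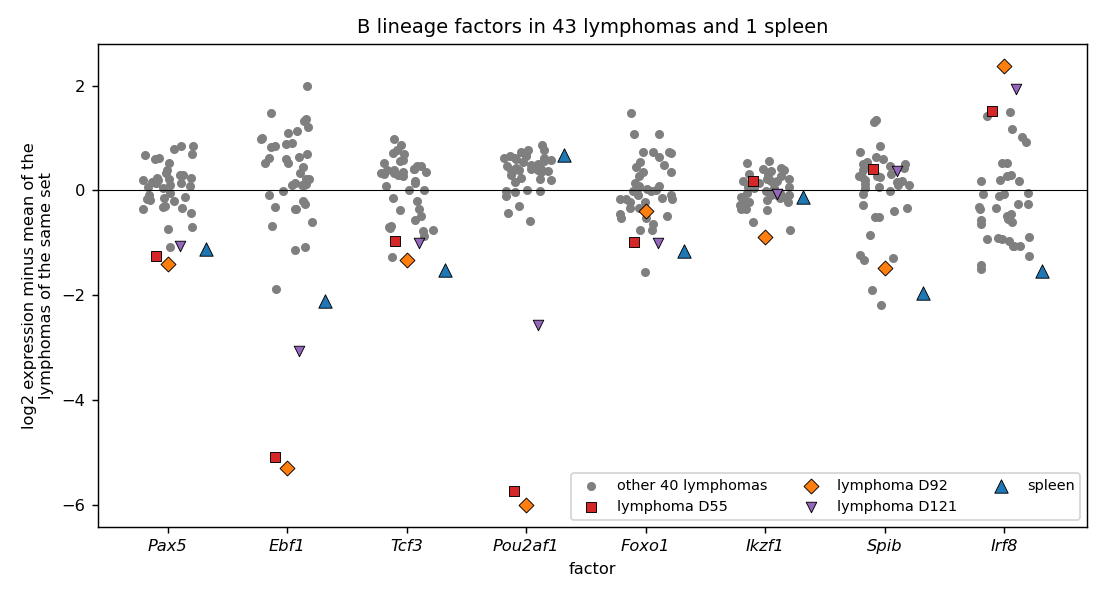
Log2 expression of each factor (x axis) minus the mean of the lymphomas of the same set (y axis), with 1 point per array for 40 lymphomas (grey), lymphomas D55, D92 and D121 (coloured) and the spleen (blue triangle). D55, D92 and D121 lie at -5.72, -5.99 and -2.57 in Pou2af1 and at -5.08, -5.29 and -3.07 in Ebf1, and they are among the highest in Irf8.

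The lymphomas D55, D92 and D121 had little Ebf1 and Pou2af1. Ebf1 was 3.51 in D55 and 3.30 in D92, where the other 34 lymphomas of the first set lay between 6.71 and 10.06, and it was 6.04 in D121, where the other 6 of the second set lay between 8.75 and 11.09. Pou2af1 was 5.64 in D55 and 5.36 in D92, against 10.78 to 12.23 in the other 34, and 9.31 in D121, against 11.77 to 12.62 in the other 6. No other lymphoma overlapped with them in either gene within its set. Pax5 was also below the others, at 4.78, 4.63 and 5.63 in D55, D92 and D121. The margin was small in the first set, where the lowest other value was 4.96 (D59), and larger in the second, where it was 6.35. Irf8 went the other way and was 11.73 in D55, 12.59 in D92 and 12.86 in D121, where the highest other values were 11.74 and 12.10, so that D55 reached the top of the range without leaving it. Spib did not follow: it was 11.28 in D55 and 12.30 in D121, inside the other lymphomas' ranges, and 9.40 in D92, near their low end. The 3′ minus 5′ difference of the actin control probe sets, a measure of RNA quality, had a lymphoma median of 0.55. It was 1.14 in D92, 0.32 in D55 and 0.57 in D121. The highest values were 1.32 in D84, which had the Ebf1 level of 6.71, and 1.26 in D85, and D59 had 0.91. The part of RNA quality in these levels was not tested.

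Known targets and other lineage genes in these 3 lymphomas are given as values without a test, because the lymphomas were recognised and the genes picked from the same arrays. Cd24a, a surface antigen of immature B cells, was 8.74 in D55, 9.50 in D92 and 11.43 in D121, below the other ranges of 12.24 to 13.32 and 13.60 to 13.99. Sdc4, a surface proteoglycan on the list of Pax5-activated genes, was 5.52, 4.97 and 7.38 in D55, D92 and D121, against lowest other values of 7.09 and 10.80. Some genes of other lineages were higher in all 3. Cd7, a surface protein of T and natural killer cells, was 11.47, 12.01 and 11.50, against highest other values of 9.12 and 7.89. Cd8b1, a coreceptor chain of T cells, was 11.16, 11.82 and 11.46, against 10.13 and 7.81. Flt3, a cytokine receptor of progenitors and dendritic cells that Pax5 represses, was 9.19, 10.79 and 8.65, against 8.21 and 8.16. Batf3, a factor of dendritic cells, was 7.75, 8.23 and 8.18, against 7.37 and 7.51. Bcl11a, a factor that B cell development itself needs, was 9.97, 9.53 and 10.56, against 9.34 and 9.35. The other T cell genes were mixed. The coreceptor gene Cd4 was 8.44 in D55, 9.86 in D92 and 9.23 in D121, above the set medians of 6.15 and 6.45. Cd3e, a chain of the T cell receptor complex, was 7.09, 6.40 and 7.72, against medians of 6.90 and 7.43, so that D92 lay below. Cd2, an adhesion receptor of T and other lymphoid cells, was 7.27, 9.52 and 7.52, against 8.73 and 9.89, so that D55 and D121 lay below the median. The dendritic cell lectin gene Cd209a was 6.23, 6.48 and 6.95, against 6.27 and 6.999, near or below the median in D55 and D121.

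Whole marker lists moved less than these single genes. The mean centred level of the 13 measured T cell markers of 15 was 0.70 in D55, 0.72 in D92 and 0.92 in D121, inside the range of the other 40 lymphomas, -1.25 to 1.95. For the 4 measured dendritic cell markers of 8 (Batf3, Ccr9, Cd209a and Itgax) it was 0.87, 2.03 and 0.51, against -0.93 to 1.53 in the other 40. For 13 of 15 macrophage markers it was 0.26, -0.19 and -0.33, against -1.37 to 3.31. The 9 measured pan-B markers stood at -0.75, -2.31 and -0.71, where the other 40 lay between -1.67 and 1.03, the lowest of them being D59. Within this list the markers were mixed in D55 and D121. Ms4a1 (11.20 and 11.80), Cd22 (10.91 and 11.58), Blnk (11.40 and 12.18) and Fcrla (9.52 and 10.15) lay near the set medians. Those medians were 11.48 and 11.80, 10.89 and 11.42, 11.21 and 12.18, and 9.72 and 10.15. Cd79a, Cd79b, Cd37, Cd72 and Blk lay below the set medians in both. The part of other cells in the values of these 3 lymphomas was not tested, and results below that rest on them are given with and without them.

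The spleen is the only array of another labelled tissue, and the comparison used the spread of the lymphomas as its error, since 1 array has no replicate. None of the 8 factors passed an adjusted p of 0.05 in limma, in a comparison that called 13.4% of 8721 genes (7.6% higher and 5.79% lower in the spleen), and 2 of the 8, Spib and Tcf3, had an unadjusted p under 0.05. The share of all genes at that unadjusted threshold was not counted, so the 2 are no result about the factors. Spib (-1.96 ± 0.81 SE on the log2 scale, adjusted p = 0.10), Tcf3 (-1.51 ± 0.65, adjusted p = 0.11), Pax5 (-1.11 ± 0.58, adjusted p = 0.20), Foxo1 (-1.15 ± 0.64, adjusted p = 0.23), Irf8 (-1.53 ± 1.03, adjusted p = 0.33) and Ebf1 (-2.12 ± 1.55, adjusted p = 0.38) had lower values in the spleen than the mean of the lymphomas. Pou2af1 was 0.67 ± 1.49 above that mean (adjusted p = 0.81) and Ikzf1 was at -0.12 ± 0.34 (adjusted p = 0.86), which became 0.74 when the sets were not modelled. Ignoring the sets also changed the split of all called genes from 663 higher and 505 lower to 1128 higher and 41 lower. On the other Tcf3 probe sets the effect was smaller, at -1.02 ± 0.73 and -1.15 ± 0.76. On the mean of probe sets it was -1.23 ± 0.70. Without D55, D92 and D121, Tcf3 stood at -1.68 ± 0.58, in a fit that called 13.5% of genes (7.64% higher and 5.89% lower). This Tcf3 value is given with no test, because the omission was chosen after seeing the data. These 3 lymphomas were themselves low in Tcf3, at -0.970, -1.322 and -1.001 from their set means, so that leaving them out widens the difference. Ebf1 then stood at -2.63 ± 0.83, which is given with no test because the 3 were set apart by Ebf1 itself, and D121 (6.04) lies below the spleen (6.99).

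Markers of other cells differed in the same comparison. The 9 measured pan-B markers had a mean centred level of -1.39 in the spleen, inside the range of the lymphomas (-2.31 to 1.03). Only D92 (-2.31) and D59 (-1.67) lay lower, and the lowest of the 7 lymphomas of its set was D121, at -0.71. All 9 measured erythroid markers and 10 of 12 neutrophil markers were called higher in the spleen, where the erythroid mean was 6.62 against at most 0.41 in a lymphoma and the neutrophil mean was 4.91 against at most 2.21. Of 9 plasma cell markers, 3 were called higher. Their part in the values of the factors was not tested.

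Across the lymphomas Tcf3 varied with Pax5 and Ebf1, and Irf8 varied against Tcf3. Of 28 pairs of the 8 factors, 10 passed a Benjamini-Hochberg adjusted p of 0.05 (two-sided permutation tests of Pearson's r with 100000 permutations), 8 of them positive and 2 negative. Pairs with Ebf1 or Pou2af1 were computed over 40 lymphomas, because D55, D92 and D121 were separated from the rest in both genes by gaps above 1 log2 unit. That omission was chosen from the values of these same genes after they were seen, in place of the planned 43 lymphomas. The adjusted p-values of these 13 pairs therefore describe the other 40 lymphomas only and are no separate support. In the other factors the largest gap between neighbouring values was 0.55 (Foxo1).

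The strongest pair was Tcf3 and Irf8, with r = -0.727 over 43 lymphomas (rho = -0.578, adjusted p = 0.00028, from the smallest p that the permutations can give). It was -0.694 in the first set and -0.932 in the second, -0.659 without the 2 lymphomas farthest from the median of Tcf3, -0.623 without D55, D92 and D121, and -0.715 with the level of other cell markers held fixed. D161 had Tcf3 at 0.69 and Irf8 at -1.41 from the set mean, and D92 had the lowest Tcf3 and the highest Irf8, at -1.32 and 2.37. The lymphomas with the highest mean of the 3 measured germinal centre markers (1.75 to 3.91) were D46, D53, D75, D78, D88, D117 and D163. They had Irf8 at 0.92 to 1.52 and Tcf3 at -1.27 to -0.35. Their part in this relation was not tested. Pax5 and Irf8 were also negatively related (r = -0.466, rho = -0.409, adjusted p = 0.0103), but this rested on few lymphomas, since r was -0.296 without the 2 farthest in Pax5 (adjusted p = 0.12) and -0.175 without D55, D92 and D121. Within the sets it was -0.348 and -0.968. With the level of other cell markers held fixed, Pax5 and Irf8 did not pass (r = -0.37, permutation test, adjusted p = 0.058).

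Tcf3 was positively related to Pax5, Ebf1 and Pou2af1. Pax5 and Tcf3 gave r = 0.618 (rho = 0.565, n = 43, adjusted p = 0.00028), 0.561 and 0.960 within the sets, 0.512 without the 2 farthest and 0.448 without D55, D92 and D121. Ebf1 and Tcf3 gave r = 0.533 (rho = 0.691, n = 40, adjusted p = 0.0044), 0.501 and 0.870 within the sets and 0.609 without the 2 farthest. Tcf3 and Pou2af1 gave r = 0.487 (rho = 0.414, adjusted p = 0.0076), 0.506 and 0.309 within the sets and 0.383 without the 2 farthest, where it no longer passed (adjusted p = 0.051, and 0.11 for rho). Ebf1 and Pou2af1, which were low together in D55, D92 and D121, gave r = 0.442 over the other 40 (rho = 0.50, adjusted p = 0.017), 0.493 and 0.103 within the sets and 0.476 without the 2 farthest. With the level of other cell markers held fixed, Ebf1 and Tcf3 (0.390, adjusted p = 0.058), Tcf3 and Pou2af1 (0.284, adjusted p = 0.15) and Ebf1 and Pou2af1 (0.331, adjusted p = 0.10) did not pass. The other pairs of the early factors did not pass in the first place: Pax5 and Ebf1 had r = 0.340 (permutation test, n = 40, adjusted p = 0.071), Ebf1 and Foxo1 0.320 (adjusted p = 0.081) and Tcf3 and Foxo1 0.198 (adjusted p = 0.31).

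The remaining pairs past the threshold had r between 0.386 and 0.450. Spib and Ikzf1 gave r = 0.450 (rho = 0.522, n = 43, adjusted p = 0.013), 0.441 and 0.530 within the sets, 0.558 without the 2 farthest and 0.372 (adjusted p = 0.055) without D55, D92 and D121. Pou2af1 and Foxo1 gave r = 0.402 (rho = 0.541, n = 40, adjusted p = 0.033), 0.405 and 0.400 within the sets and 0.474 without the 2 farthest. Pax5 with Pou2af1 gave r = 0.390 (rho = 0.351, n = 40, adjusted p = 0.037), 0.389 and 0.397 within the sets and 0.282 without the 2 farthest (adjusted p = 0.16), and it was 0.241 without D59. Pax5 with Foxo1 gave r = 0.386 (rho = 0.316, n = 43, adjusted p = 0.033), 0.305 and 0.712 within the sets, 0.311 without the 2 farthest (adjusted p = 0.10) and 0.225 without D55, D92 and D121. The last 2 did not pass by rank, with adjusted p of 0.076 and 0.090 for rho. With the level of other cell markers held fixed, Pax5 with Pou2af1 did not pass (r = 0.230, permutation test, adjusted p = 0.24). Spib with Ikzf1, Pou2af1 with Foxo1 and Pax5 with Foxo1 still passed there. Spib did not pass with Pax5 (r = 0.162), Ebf1 (-0.324, adjusted p = 0.080) or Tcf3 (-0.241). Its pair with Tcf3 passed without D55, D59, D92 and D121 (r = -0.459, adjusted p = 0.020), and its pair with Ebf1 passed on the mean of probe sets (-0.358, adjusted p = 0.045).

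**Figure D2:**
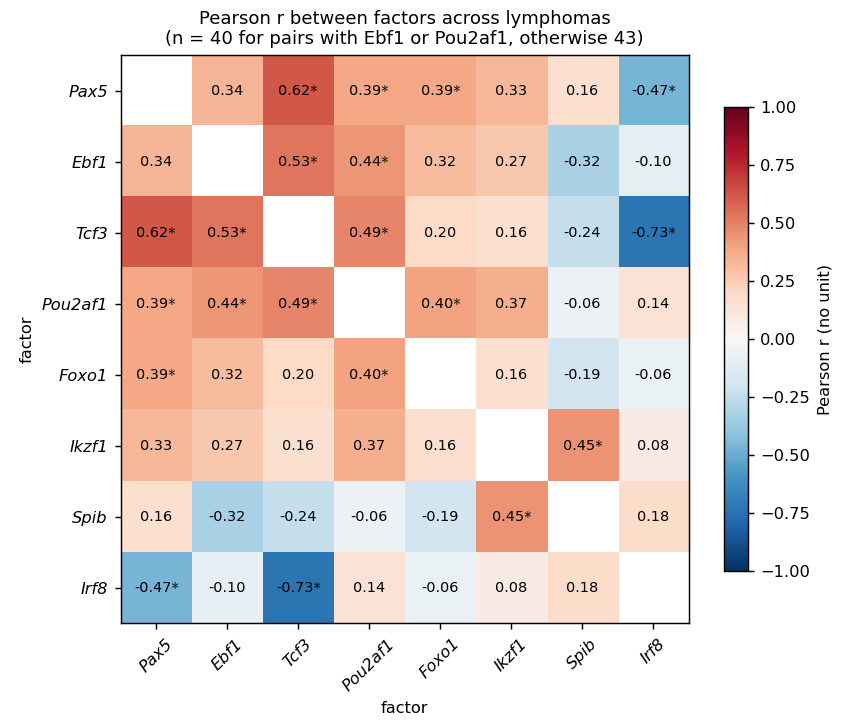
Pearson's r (colour and number, no unit) between the set-centred log2 levels of each pair of factors across lymphomas, with an asterisk where the adjusted permutation p is under 0.05. Tcf3 with Irf8 (-0.73) and Pax5 with Tcf3 (0.62) are the strongest negative and positive pairs. Pairs with Ebf1 or Pou2af1 are over 40 lymphomas, without D55, D92 and D121, which were set apart by these same genes.

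Myc, the transgene's product and the common lesion of these mice, was set against every gene as a slope per log2 unit of Myc over the 43 lymphomas. Of the 8 factors, 3 passed, in a fit that called 43.3% of 8720 genes (26.4% higher and 16.9% lower), so that their share was near the background. Tcf3 was higher where Myc was higher, with a slope of 0.57 ± 0.14 (limma, adjusted p = 0.0010), and its slope was 0.64 ± 0.15 in the first set and 0.25 ± 0.34 in the second. Irf8 was lower, at -0.67 ± 0.24 (adjusted p = 0.022), with -0.67 ± 0.25 and -0.65 ± 0.67 within the sets. Foxo1 was lower, at -0.37 ± 0.15 (adjusted p = 0.046), with -0.40 ± 0.16 and -0.25 ± 0.47 within the sets, but its other responsive probe sets did not pass (adjusted p = 0.12 and 0.34), and the call was lost with no filter (adjusted p = 0.057) and on the mean of probe sets (-0.19, adjusted p = 0.16). With the other cell markers in the model, only Foxo1 passed, at -0.70 ± 0.19 (adjusted p = 0.016), while Tcf3 was at 0.13 ± 0.16 (adjusted p = 0.65) and Irf8 at -0.47 ± 0.32 (adjusted p = 0.37). That fit called 514 genes higher and 425 lower of 8720. Without D55, D92 and D121 the counts of the factors were the same, 1 higher and 2 lower, in a fit that called 44.2% of genes (26.8% higher and 17.5% lower). Without modelled sets, Irf8 (-0.38) and Foxo1 (-0.21) did not pass, Ikzf1 did (0.31, adjusted p = 0.020), and the split of all called genes moved from 2301 higher and 1474 lower to 4062 and 599.

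The factors were next set against a B cell stage score, the mean centred level of 8 mature B cell markers minus that of 12 precursor markers, none of which is a factor studied here although some are their known targets. Of the 8 factors, 4 passed, in a fit that called 24.2% of 8701 genes (11.2% higher and 13% lower). Spib was higher in lymphomas of a more mature score, with a slope of 0.39 ± 0.056 per unit (adjusted p = 3.4e-06), 0.42 in the first set and 0.27 in the second. Irf8 was also higher, at 0.38 ± 0.085 (adjusted p = 0.0011), with 0.36 and 0.46. The lymphomas named above for high germinal centre markers and high Irf8 had stage scores of 1.43 to 1.95, and their part in this slope was not tested. Tcf3 was lower, at -0.28 ± 0.049 (adjusted p = 6.3e-05), with -0.30 and -0.21. Ebf1 was lower, at -0.38 ± 0.14 (adjusted p = 0.0496), with -0.34 and -0.53, and at -0.26 ± 0.072 without D55, D92 and D121, a value given with no test since these were set apart by Ebf1, in a fit that called 23.1% of genes (10.7% higher and 12.4% lower). The Ebf1 call lay at the threshold. It was lost with the other cell markers in the model (-0.32, adjusted p = 0.16), in the first set alone (adjusted p = 0.15), without modelled sets (adjusted p = 0.068), with no filter (adjusted p = 0.057), with quantile normalization within sets (adjusted p = 0.055) and with robust eBayes without a trend (adjusted p = 0.051). When single probe sets were fitted in limma, the reported Ebf1 probe set did not pass (adjusted p = 0.051). The other Ebf1 probe sets did, at -0.43 (adjusted p = 0.025) and -0.38 (adjusted p = 0.012). The mean of the Ebf1 probe sets also passed, at -0.42 (adjusted p = 0.030). Pax5, Pou2af1, Foxo1 and Ikzf1 did not pass, with slopes of -0.063, -0.15, -0.076 and 0.065.

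Single lymphomas made these slopes visible. The 4 lymphomas with the lowest stage scores, D161, D62, D57 and D48, had Spib at -1.32, -2.19, -1.28 and -1.90 from their set means and Ebf1 at 1.98, 1.47, 1.32 and 1.09. D59, the next in order with a stage score of -2.28, had Spib at -1.22 but Ebf1 at 0.11 and Tcf3 at -0.71. The following D56 and D64, with stage scores of -1.82 and -1.63, had Spib above the set mean, at 0.16 and 0.55, and Ebf1 at 0.61 and 0.82. D161 was also the highest of all in Foxo1, at 1.47. D92 had a low Spib as well, at -1.48, with a stage score of 0.34. D89, with the highest stage score of 2.26, had the highest Spib, 1.35 above the set mean, together with the lowest Irf8 of all, at -1.49.

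**Figure D3:**
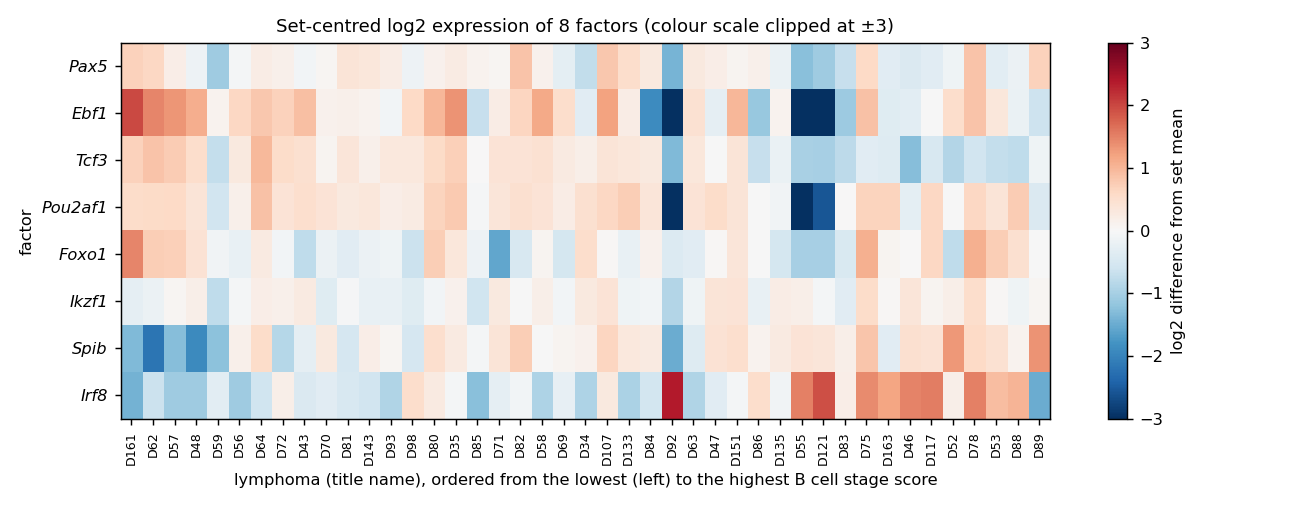
Set-centred log2 level (colour) of the 8 factors in the 43 lymphomas, ordered from the most precursor-like (left) to the most mature (right) B cell stage score. In the 4 columns at the left Spib and Irf8 are low and Ebf1 and Tcf3 high, the next columns are mixed (D59 has Tcf3 at -0.71, D56 and D64 have Spib at 0.16 and 0.55), and the dark blue columns in Ebf1 and Pou2af1 are D92, D55 and D121.

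**Figure D4:**
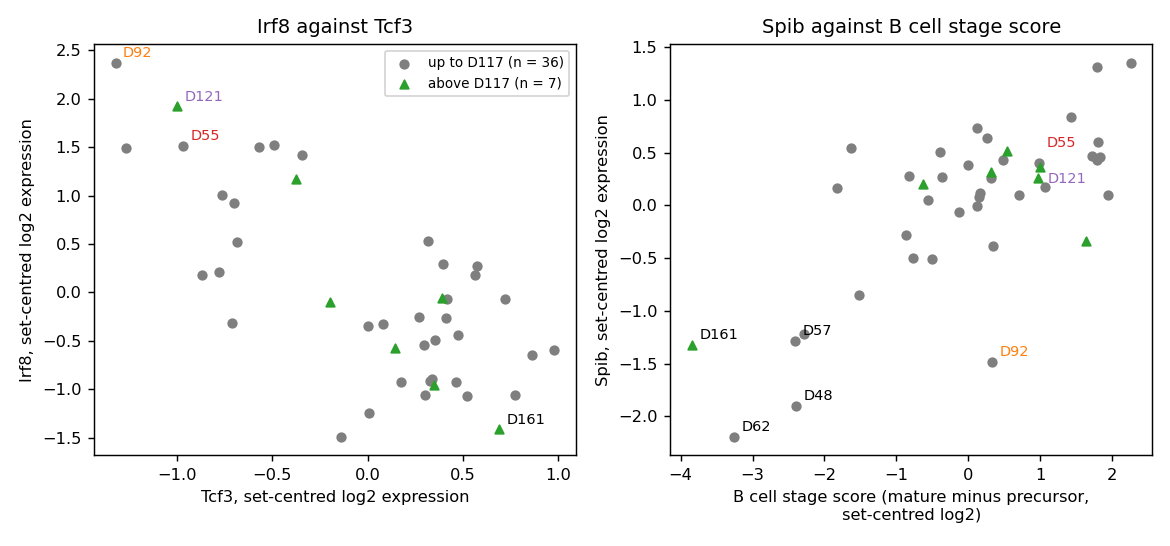
Left, set-centred log2 Irf8 against Tcf3, and right, Spib against the B cell stage score, with 1 point per lymphoma and the sets shown by marker. Irf8 is lower where Tcf3 is higher (r = -0.727), and the lymphomas with the lowest Spib, other than D92, have the lowest stage scores. The highest Irf8 values belong to D55, D92, D121 and the lymphomas with the highest germinal centre markers.

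The factors were also set against an other cell score, the mean of the T cell, macrophage, neutrophil, natural killer and stroma marker levels. Of the 8, 3 passed, in a fit that called 51.1% of 8664 genes (19.9% higher and 31.2% lower), so that the share of the factors was below that of all genes. Tcf3 was lower where the score was higher, at -0.67 ± 0.11 per unit (adjusted p = 2.1e-06), with -0.70 and -0.52 within the sets. Pax5 was lower, at -0.38 ± 0.12 (adjusted p = 0.0074), with -0.37 and -0.42. Irf8, which macrophages also express, was higher, at 0.55 ± 0.22 (adjusted p = 0.034), with 0.45 and 1.14. Without D55, D92 and D121, in a fit that called 50.8% of genes (19.9% higher and 30.9% lower), the slope was -0.47 ± 0.17 for Ebf1 and -0.21 ± 0.073 for Pou2af1, both with no test since the 3 were set apart by these genes. The Pou2af1 slope was -0.13 without D59 as well, the lymphoma with the highest other cell score (1.98). Without modelled sets Pax5 did not pass (-0.24, adjusted p = 0.18), and the split of all called genes moved from 1721 higher and 2703 lower to 1957 and 371, and in the first set alone Irf8 did not pass (adjusted p = 0.10).

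**Figure D5:**
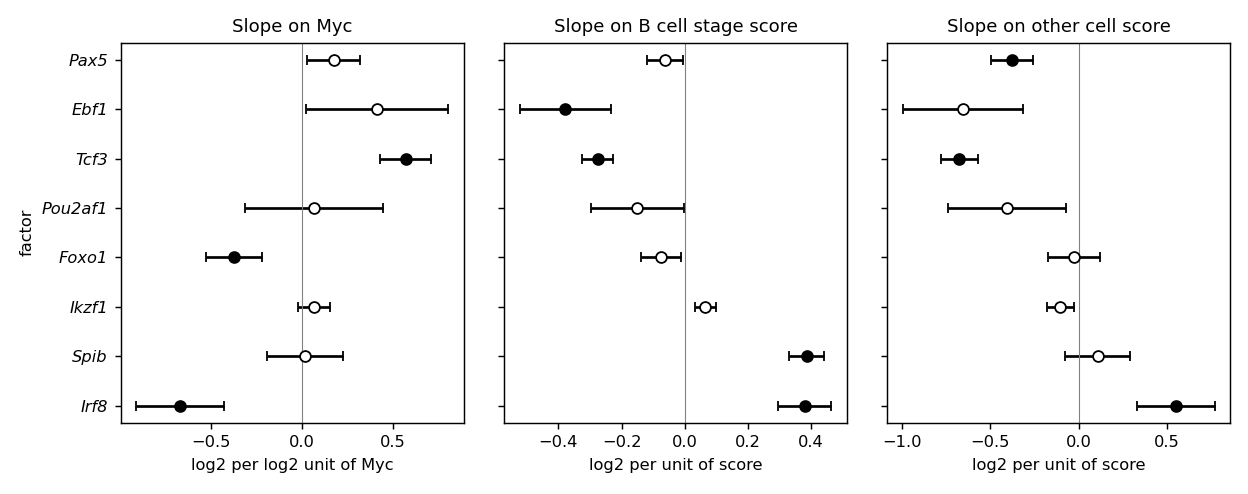
Slope of each factor (points, with bars of 1 SE) on Myc, on the B cell stage score and on the other cell score over 43 lymphomas, filled where the limma adjusted p is under 0.05. Spib (0.39) and Irf8 (0.38) lie above 0 on the stage score, and Tcf3 (-0.28) and Ebf1 (-0.38) below it.

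Each factor was then taken as the predictor of all other genes, and lists of its known targets and partners were read from that fit. These fits show which genes varied with a factor, not what the factor regulates. Where members of a list are counted at an unadjusted p under 0.05, the share of all genes at that threshold was not counted. Such counts are therefore no result about the list. Slopes are log2 units of a gene per log2 unit of the factor. All fits model the sets, and without that the split of called genes moved towards higher in each of the 8 fits, as given beside it.

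Tcf3 varied with a large share of the transcriptome. Of 8720 genes, 45.7% were called, 27.7% higher and 18% lower where Tcf3 was higher (4034 and 645 genes without modelled sets), and 46.2% without D55, D92 and D121 (28.1% higher, 18.1% lower). With the other cell score in the model, 962 genes were called (477 higher and 485 lower) in place of 3983. Of 6 genes that E proteins are known to activate, 5 were called higher, with a median slope of 1.28 against 0.033 over all genes. They were the recombinase genes Rag1 (2.65 ± 0.47, adjusted p = 2.1e-05) and Rag2 (1.35 ± 0.27, adjusted p = 9.8e-05), the surrogate light chain genes Vpreb1 (1.48 ± 0.48) and Igll1 (1.22 ± 0.44), and Dntt (0.74 ± 0.28), which adds bases at recombination joints. Of these, Rag1, Rag2 and Vpreb1 passed without D55, D92 and D121, and with the other cell score 5 did. All 6 genes of this list are also precursor markers, so this count and the stage slope of Tcf3 share their data. Of 7 measured partners and inhibitors, 3 were higher and 2 lower (2 and 2 without D55, D92 and D121, and 1 and 1 with the other cell score). Id2, an inhibitor that binds E proteins, was lower where Tcf3 was higher (-1.57 ± 0.21, adjusted p = 2.5e-07), while the inhibitor Id3 was higher (0.84 ± 0.18, adjusted p = 0.00018). The other E protein gene Tcf4 was lower (-0.98 ± 0.16, adjusted p = 6.8e-06), and Tcf12 was higher by a small slope (0.20 ± 0.072, adjusted p = 0.020). The genes most alike in pattern over the 43 lymphomas were Tjap1 (r = 0.867), Arntl (0.853), Lrmp (0.852), Rhno1 (0.847) and Akap12 (0.846), and the most opposed were Tmem51 (-0.877), Ncf1 (-0.870) and Arhgap5 (-0.847). All 8 passed without D55, D92 and D121.

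Ebf1 and Pou2af1 owed much of their pattern to the 3 separate lymphomas. For Ebf1, 14.2% of genes were called, 7.19% higher and 7% lower (415 and 238 genes without modelled sets). The share was 4.69% without D55, D92 and D121 (2.98% higher, 1.71% lower), or 409 genes in place of 1237. Of 7 measured genes that Ebf1 is known to activate, 2 were called higher, the receptor subunits Cd79a (0.54 ± 0.072, adjusted p = 9.7e-07) and Cd79b (0.33 ± 0.053, adjusted p = 1.7e-05). None was called by limma without those 3, where 3 had an unadjusted p under 0.05. The genes most alike were Cd24a (r = 0.907), Pou2af1 (0.885), Sdc4 (0.807), Gpsm2 (0.807) and Nmi (0.800), and the most opposed were Usp20 (-0.883), Septin3 (-0.866) and Cd7 (-0.864). Over the other 40 lymphomas, Cd24a kept r = 0.615, Gpsm2 0.529 and Usp20 -0.560, while Nmi had 0.116. These values are given with no test, because the 3 were set apart by Ebf1 itself. Over these 40 the leading genes were Wasf2 (0.776), Mpp5 (0.725), Kansl1 (0.702), Frg1 (0.701) and the E protein inhibitor Id3 (0.692).

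For Pou2af1, 9.6% of genes were called, 4.11% higher and 5.49% lower (226 and 197 genes without modelled sets). The share was 2.2% without D55, D92 and D121 (1.11% higher, 1.09% lower), or 192 genes in place of 837. Of 5 measured partners and targets, none was called higher and Kcnn4, a potassium channel gene, was called lower (-0.21 ± 0.060, adjusted p = 0.019), and not called without those 3, where 1 of the 5 had an unadjusted p under 0.05 in limma. Pou2f2, the octamer factor that Pou2af1 coactivates, had a slope of -0.036 ± 0.084 (adjusted p = 0.87). The genes most alike were Cd24a (r = 0.950), Ebf1 (0.885), Nmi (0.866), Sdc4 (0.816) and Sh3bp5 (0.802), opposed by Gdpd3 (-0.919), Septin3 (-0.896) and Cd7 (-0.888), and none of the 8 passed over the other 40. There the leading genes were others: Ccnb2 (0.731) and Kif23 (0.635), which act in cell division, St6gal1 (0.672), a sialyltransferase of B cells, Odf2 (0.670) and Rhoh (0.643).

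The genes that varied with Pax5 also depended on the separate lymphomas. For Pax5, 12.6% of genes were called, 7.04% higher and 5.55% lower (3444 and 131 genes without modelled sets). Without D55, D92 and D121, 0.894% were called (0.482% higher, 0.413% lower), or 78 genes in place of 1098, and without D59 as well 1 was called. Of 10 measured genes that Pax5 is known to activate, 6 were called higher, with a median slope of 0.76 against 0.028 over all genes. Among them were Cd79a (1.40 ± 0.21, adjusted p = 3.7e-05), the repressor gene Bach2 (1.16 ± 0.24, adjusted p = 0.0015), Sdc4 (1.53 ± 0.32, adjusted p = 0.0015) and the kinase gene Blk (0.94 ± 0.30, adjusted p = 0.033). Of 12 genes that Pax5 is known to repress, 4 were called lower: Flt3 (-1.02 ± 0.23, adjusted p = 0.0028), the T cell costimulator Cd28 (-1.11 ± 0.31, adjusted p = 0.014) and the plasma cell factors Xbp1 (-0.66 ± 0.22, adjusted p = 0.037) and Prdm1 (-0.72 ± 0.25, adjusted p = 0.049). The median slope of these 12 was -0.54. No gene of either list was called by limma over the other 40 lymphomas, where 4 of the 10 and 6 of the 12 had an unadjusted p under 0.05 and the medians were 0.43 and -0.84 against 0.043 over all genes. The share of all genes under that unadjusted p was not counted. Gga2, a sorting adaptor of the Golgi, was the most alike with all lymphomas (r = 0.805) and without the 3 (0.722, adjusted p = 0.0010). After it came Cd79a (0.722), Nfyb (0.721), Hdac7 (0.716) and Rest (0.715), and the most opposed were Fcgrt (-0.775), Acvrl1 (-0.768) and Cadm1 (-0.749).

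Ikzf1 and Foxo1 varied with fewer genes. For Ikzf1, 4.52% of genes were called, 2.68% higher and 1.83% lower (5852 and 25 genes without modelled sets), and 1.31% without D55, D92 and D121 (0.94% higher, 0.367% lower). None of 8 genes that Ikaros is known to repress was called by limma, 2 had an unadjusted p under 0.05, and the surrogate light chain genes had slopes of -2.14 ± 0.99 (Vpreb1, adjusted p = 0.21) and -1.77 ± 0.90 (Igll1, adjusted p = 0.26). Of 9 measured members of NuRD, 1 was called higher, Mbd3 (0.55 ± 0.15, adjusted p = 0.022), and it was not called without those 3 lymphomas. The gene most alike was Med27, a Mediator subunit (r = 0.801, and 0.765 without the 3), before Arpc4 (0.719), Nelfe (0.712), Armt1 (0.706) and Taf1b (0.697), and the most opposed were Plekhf1 (-0.719), Lztr1 (-0.648) and Vps39 (-0.633). For Foxo1, 3.54% of genes were called, 1.75% higher and 1.79% lower (189 and 18 genes without modelled sets), and 1.87% without D55, D92 and D121 (0.94% higher, 0.929% lower). Of 16 measured Foxo1 targets, the adaptor gene Blnk was called higher (0.43 ± 0.11, adjusted p = 0.017) and Klf2, which governs lymphocyte trafficking, was called lower (-0.88 ± 0.20, adjusted p = 0.0081), both also without D55, D92 and D121. Rag1 and Rag2 had slopes of 1.48 ± 0.58 (adjusted p = 0.15) and 0.99 ± 0.31 (adjusted p = 0.057). None of 9 measured genes of PI3K and AKT signalling, which holds Foxo1 in check, was called by limma, while 2 had an unadjusted p under 0.05, the nearest being the phosphatase gene Inpp5d (0.27 ± 0.080, adjusted p = 0.050). The gene most alike was Rnf145 (r = 0.783), before Dck (0.715), Epb41l2 (0.695), 4932438A13Rik (0.694) and Bbx (0.680), and the most opposed were Plp2 (-0.730), Colgalt1 (-0.728) and Ckap4 (-0.700).

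Spib varied with few genes, several B cell stage markers among them. For Spib, 5.02% of genes were called, 2.26% higher and 2.76% lower (2643 and 80 genes without modelled sets), and 5.96% without D55, D92 and D121 (2.65% higher, 3.31% lower). Of 12 precursor markers, 7 were called lower where Spib was higher and none higher, with a median slope of -0.86 against 0.0031 over all genes, and without D55, D92 and D121 it was 9 of 12. The precursor and mature markers are those of the stage score, so these counts and the stage slope of Spib share their data. The precursor markers called included Vpreb1 (-1.97 ± 0.30, adjusted p = 3.0e-05), Igll1 (-1.70 ± 0.28, adjusted p = 0.000101), Rag2 (-0.98 ± 0.22, adjusted p = 0.0043) and Cd93 (-1.26 ± 0.32, adjusted p = 0.012). Of 8 measured mature markers, 3 were called higher: the chemokine receptor gene Cxcr5 (0.88 ± 0.24, adjusted p = 0.023) and the BAFF and APRIL receptor genes Tnfrsf13c (0.74 ± 0.18, adjusted p = 0.010) and Tnfrsf13b (0.41 ± 0.10, adjusted p = 0.011). Of 5 measured genes that Spib is known to activate, 2 were called higher, the receptor signalling enzyme gene Plcg2 (0.26 ± 0.053, adjusted p = 0.0012) and the NF-κB subunit gene Rel (0.27 ± 0.079, adjusted p = 0.033). The gene most alike in pattern was Pou2f2, the octamer factor Oct2 (r = 0.865, and 0.870 without D55, D92 and D121). It was followed by Swap70 (0.815), Ralgps2 (0.799), Dclre1a (0.744) and Cables2 (0.721), and the most opposed were Adgrg1 (-0.834), Smtn (-0.814) and Adgrg3 (-0.752).

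Irf8 was higher where the 3 measured germinal centre markers were higher. For Irf8, 23.6% of genes were called, 10.5% higher and 13.1% lower (1103 and 165 genes without modelled sets), and 24.9% without D55, D92 and D121 (11.1% higher, 13.8% lower). Of 7 measured partners and targets, 5 were called higher and 1 lower, with the same counts without those 3 and 3 and 1 with the other cell score. The fit with the other cell score called 402 genes higher and 362 lower of 8720. Higher were the germinal centre repressor Bcl6 (0.91 ± 0.20, adjusted p = 0.0011), Ciita, the master regulator of MHC class II (0.67 ± 0.12, adjusted p = 0.00023), the protease gene Ctss (0.50 ± 0.11, adjusted p = 0.0012) and the phagocyte oxidase gene Cybb (0.81 ± 0.21, adjusted p = 0.0045), with Mdm2 at a small slope (0.099 ± 0.033, adjusted p = 0.028). Its close relative Irf4, which acts in plasma cells, was lower (-0.69 ± 0.11, adjusted p = 4.0e-05). All 3 measured germinal centre markers of 7 were called higher, Bcl6, Gcsam (1.14 ± 0.26, adjusted p = 0.0016) and Mef2b (0.96 ± 0.18, adjusted p = 0.00026), and all 3 remained called with the other cell score in the model. Of 12 precursor markers, 7 were lower and only Flt3 was higher (0.78 ± 0.097, adjusted p = 9.9e-07), which again shares its data with the stage slope.

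Cells other than B cells also express Irf8, and their markers moved with it in part. Of 13 measured macrophage markers, 3 were called higher with all lymphomas, 7 without D55, D92 and D121, and 1 with the other cell score in the model (402 genes higher and 362 lower of 8720). Of 13 measured T cell markers, 6 were called higher, and 3 with the other cell score. Of 7 measured natural killer cell markers, 3 were higher and 1 lower, and none was called by limma with the other cell score, where none had an unadjusted p under 0.05. None of 12 neutrophil markers was called by limma or had an unadjusted p under 0.05. Cd68 had a slope of 1.09 ± 0.19 (adjusted p = 0.00013) and C1qa of 0.69 ± 0.26 (adjusted p = 0.046), but the general macrophage markers Adgre1 (0.18 ± 0.13, adjusted p = 0.30) and Mrc1 (-0.11 ± 0.19, adjusted p = 0.72) were not called. Of 4 measured dendritic markers, Itgax (0.64 ± 0.13, adjusted p = 0.00043) and Batf3 (0.46 ± 0.076, adjusted p = 5.2e-05) were called. The genes most alike were Slc41a2 (r = 0.826), Flt3 (0.778), Pkib (0.771), Sec24d (0.755) and Eepd1 (0.747), and the most opposed were Ecpas (-0.823), Btrc (-0.797) and Rabep2 (-0.742). Over the other 40 lymphomas the lead passed to Sorl1 (0.830), and Foxp1, a factor of early B cells, stood at -0.811 among the most opposed. The part of other cells in the Irf8 level was not tested beyond the fits with the other cell score.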

How the data were processed

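The 44 arrays were deposited as log2 values, which the authors made with RMA in the affy package, per the submitters' processing notes; no versions are given in the sources used here. Probe sets were named through GEO's platform annotation: of 22690, 20380 had 1 gene symbol, 691 several and 1555 none (64 were controls). A gene was represented by its probe set with the highest mean and kept where any array reached over the median of all values of the array's set, leaving 8721 of 12393 genes. Sets are the lymphomas named up to D117 and above it; why their levels differ is not given in the sources used here. All fits used limma 3.58.1 (R 4.3.3, lmFit and eBayes with trend), the set as covariate, two-sided tests and a Benjamini-Hochberg adjusted p under 0.05 over all genes. Correlations were tested by permutation in numpy 2.4.6. With Ikzf3 not analysed, 28 pairs replaced the planned 36. The p-values measure the spread between these arrays only, since separate animals are not stated. Scores are means of centred marker values.

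Named genes were the factors, at most 4 members per list, those with the strongest statistic, and the 5 most alike and 3 most opposed to each factor past the threshold. Members and lists were chosen with earlier results of these data known, and the omission of D55, D92 and D121 was chosen after seeing the data. Genes most alike without them, and list members named beyond 4, were also chosen after their values were seen. Alternatives were no set covariate, no filter, the mean of probe sets, quantile normalization within sets, eBayes without trend, 1 set alone, the other cell score as covariate, and omission of lymphomas. The fits were tested on simulated data.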

Additional observations from a re-analysis of the deposited data

Results flagged for a closer look

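Among the 7 lymphomas above D117, Pou2af1 in lymphoma D121, at 9.31, lay apart from the others: its gap to the nearest lymphoma was 0.743 of the whole range, above the 95% critical value of Dixon's test for 7 values. It was the only such value in 16 tests, the lowest and highest of 8 factors, and chance gives about 1 in 20 groups. The 36 lymphomas of the first set were not tested in this way. D121 had already been set apart by its gap in Pou2af1, so this test draws on the same value and adds no separate support.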

How the results depend on the processing

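The counts of genes called in the 12 fits stayed within 1.5 times of the reported ones with no filter, with the mean of probe sets, with quantile normalization within sets and with robust eBayes without a trend. With the other cell score in the model they were 939 on Myc (3775 reported), 1343 on the stage score (2103), 264 on Pax5 (1098), 962 on Tcf3 (3983), 764 on Irf8 (2056), 655 on Ikzf1 (394) and 632 on Foxo1 (309). Without modelled sets they were 1070 on the stage score, 2328 on the other cell score (4424), 3575 on Pax5, 653 on Ebf1 (1237), 2723 on Spib (438), 423 on Pou2af1 (837), 1268 on Irf8 and 5877 on Ikzf1. In the first set alone they were 693 on Pax5, 1241 on Irf8 and 170 on Foxo1. Without D55, D92 and D121 they were 78 on Pax5, 409 on Ebf1, 192 on Pou2af1 and 114 on Ikzf1, with that on Foxo1 also lower by over 1.5 times, and without D59 as well they were 1 on Pax5, 503 on Ebf1, 41 on Pou2af1 and 29 on Ikzf1. Counts not given here were within 1.5 times of the reported ones under these settings. The directions below turned, none of them past the threshold under the alternative. Without modelled sets these were Ikzf1 in the spleen (0.74) and on the other cell score (0.070), Foxo1 on the other cell score (0.042) and on Irf8 (0.0014), Spib on Ebf1 (0.0055), Ebf1 on Spib (0.016), Irf8 on Foxo1 (0.0035) and Vps39 on Ikzf1 (0.057), and, as r, Spib with Pou2af1 (0.191) and Irf8 with Foxo1 (0.0022). With the other cell score they were Pax5 (-0.19), Ebf1 (-0.13), Pou2af1 (-0.42) and Ikzf1 (-0.016) on Myc and r of Ebf1 with Irf8 (0.053). With quantile normalization they were Spib on Myc (-0.020) and Foxo1 on the other cell score (0.0067). In the first set they were Spib on Myc (-0.094), Foxo1 on the stage score (0.00051), the other cell score (0.050) and Irf8 (0.060), Spib on Ebf1 (0.0036), Ebf1 on Spib (0.012), Irf8 on Foxo1 (0.16) and r of Irf8 with Ebf1 (8.14e-05) and Foxo1 (0.099). In the second set they were r of Pax5 with Spib (-0.413), and of Ikzf1 with Pax5 (-0.309), Ebf1 (-0.169), Tcf3 (-0.104), Pou2af1 (-0.439) and Foxo1 (-0.191), and Pou2af1 with Irf8 (-0.073). Without D55, D92 and D121, and then without D59 as well, they were Spib on Myc (-0.0095 and -0.065), Foxo1 on the other cell score (0.015 and 0.042), Pou2af1 on Spib (-0.024 and -0.083), Spib on Pou2af1 (-0.13 and -0.52), Irf8 on Pou2af1 (0.36 and 0.40), Nmi on Pou2af1 (-0.15 and -0.16), Pou2af1 on Irf8 (0.056 and 0.049), Foxo1 on Irf8 (0.12 and 0.12), Irf8 on Foxo1 (0.24 and 0.24) and r of Irf8 with Foxo1 (0.169 and 0.168). Only without the 4, they were Ikzf1 on Tcf3 (-0.041), Tcf3 on Ikzf1 (-0.17), r of Tcf3 with Ikzf1 (-0.083) and Sh3bp5 on Pou2af1 (-0.089). Without the 2 farthest they were r of Spib with Pou2af1 (0.014) and Irf8 with Foxo1 (0.067). The cause was not tested. No paired analysis was possible because there is 1 spleen and the lymphomas are 1 group. The number of arrays limits the precision, and Pax5 and Ikzf1 have low signals.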

Other observations

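Other B cell factors, outside the 9 studied, also differed along the stage score. Of 27 measured, 8 were higher and 7 lower with a more mature score, where the fit called 24.2% of all genes. Pou2f2 (0.41 ± 0.053 per unit), Mef2b (0.68 ± 0.12), Mef2c (0.25 ± 0.071) and Bcl6 (0.45 ± 0.15) were among the higher ones. Sox4 (-1.34 ± 0.17), Lef1 (-0.60 ± 0.099), Myb (-0.57 ± 0.068) and Erg (-0.32 ± 0.044), which are factors of progenitors, were among the lower ones. On Myc the share called was near that of all genes, 43.3% (26.4% higher and 16.9% lower), so it is no result about these factors: 5 of the 27 were higher, among them Sox4 (2.29 ± 0.58) and Myb (0.96 ± 0.24), and 7 were lower, among them Bcl6 (-2.15 ± 0.25), Mef2b (-1.76 ± 0.29) and Id2 (-1.49 ± 0.26).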
